A study of Mus musculus with 2 samples.

Results

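The constitutive proteasome and PA28 genes were taken as every listed gene whose symbol starts with Psma, Psmb, Psmc, Psmd or Psme, apart from the immunoproteasome genes Psmb8, Psmb9 and Psmb10. This gave 42 of the 17139 genes listed in both libraries. By role they were 7 genes of the alpha ring, 7 of the beta ring, 6 of the ATPase ring, 11 other genes of the regulatory cap, Psme1 and Psme2 for PA28 alpha and beta, Psme3 for PA28 gamma, Psme4 for PA200, 3 chaperones of cap assembly, the testis and thymus core genes Psma8 and Psmb11, the Psme2 copy Psme2b, and Psmc3ip, which shares the start of its name but is a factor of meiotic recombination and no proteasome subunit. The single-cell RNA sequencing (scRNA-seq) data held 1 library of endothelial cells (ECs) from a subcutaneous tumour of Lewis lung carcinoma (LLC), a mouse lung cancer line, injected with PBS, and 1 from such a tumour injected with cGAMP, a cyclic dinucleotide that binds and activates STING. Each library came from 1 mouse, an adult of the C57BL/6 strain by the labels. The methods give the hosts of LLC tumours as males of the C57BL/6 J substrain, aged 8 to 9 weeks. The cGAMP was given into the tumour as 14 µg in 70 µl, and live CD31+ CD45- cells were sorted 24 h later by the methods of the study, or 6 h later by a legend in its supplement. As there is only 1 library for each condition, differences between them have no replicates behind them and were not tested, and every interval given covers counting error only.

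The proteasome is the protease that degrades most ubiquitinated proteins of a cell. Its core particle is a barrel of stacked rings, with the alpha rings as gates at the ends and the catalytic sites inside the beta rings. The regulatory cap sits on the barrel, holds the ubiquitinated protein, removes the ubiquitin chain, and uses a ring of ATPases to unfold the protein and thread it into the core. PA28 is a cap of another kind that opens the gate without ubiquitin or ATP. Its alpha and beta subunits are known as interferon-induced genes that aid antigen presentation together with the immunoproteasome subunits, which replace the constitutive catalytic subunits in newly built cores. PA28 gamma is a nuclear form tied to proliferation.

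The PBS library held 2517 ECs with 92081146 unique molecular identifiers (UMIs), at a median of 29780 per cell, and the cGAMP library 1340 ECs with 63366746 UMIs, at a median of 41178. The libraries shared 1 cell barcode. Levels are the UMIs counted for a gene in all ECs of a library together, scaled to 1000000 UMIs (CPM). A UMI marks a transcript molecule at its 3′ end, so levels were not divided by gene length. All 9 endothelial markers, Pecam1, Cdh5 and Kdr among them, were detected in both libraries, at a summed 5182 and 5711 CPM. Egfl7 alone had 1181.5 and 2122 CPM, and the remaining 8 summed to 4000 and 3588 CPM. Of the neutrophil markers 3 of 4 were detected in PBS-treated and 4 of 4 in cGAMP-treated ECs, and of the macrophage or monocyte markers 9 of 9 in both. The neutrophil markers summed to 0.652 CPM in PBS-treated and 17.0 CPM in cGAMP-treated ECs, with Retnlg at 0 in the former, and the macrophage or monocyte markers to 21.0 and 46.6 CPM. The median mitochondrial share of a cell's UMIs was 4.49% and 2.87%. A gene was compared if it reached 5 CPM in 1 of the libraries, which 9509 genes did, 40 of the members among them. Their log2 ratio of cGAMP over PBS had a median of -0.08.

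**Figure D1:**
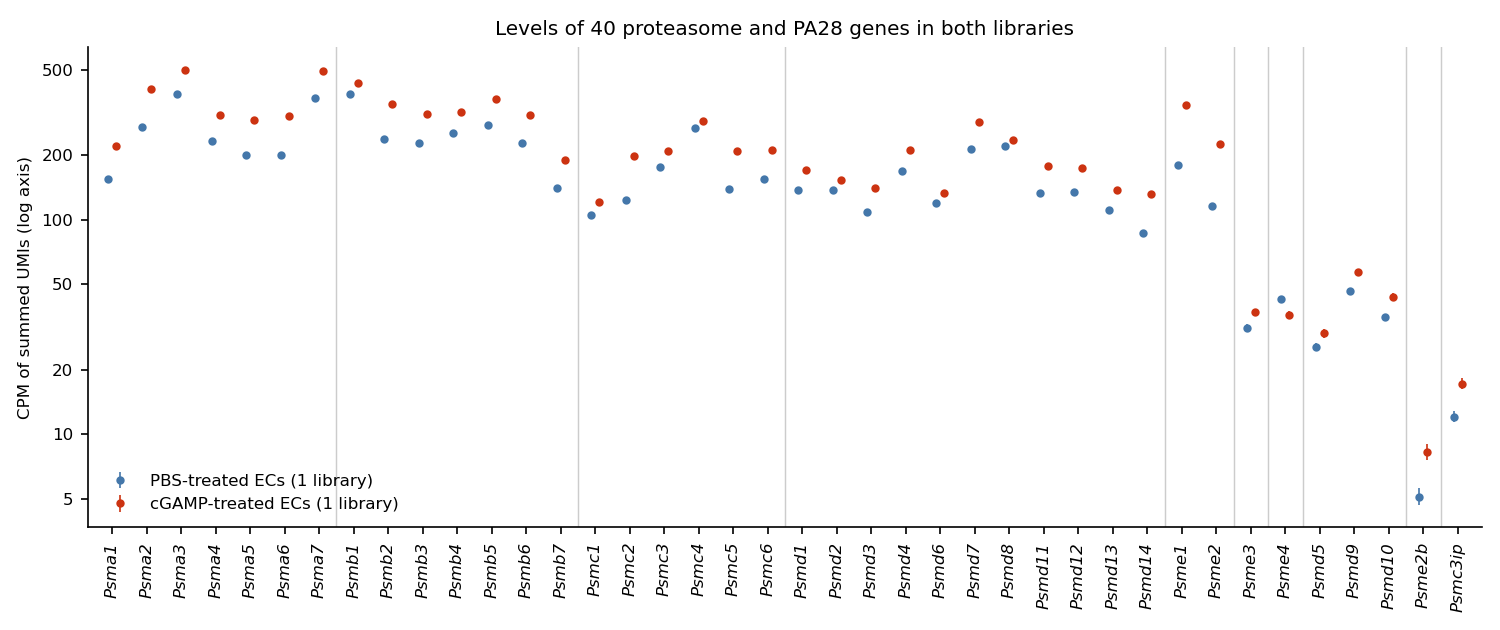
Levels of the 40 members that reached 5 CPM, as CPM of summed UMIs on a log axis, in PBS-treated (blue) and cGAMP-treated (red) ECs, with exact Poisson 95% intervals that are mostly smaller than the points. Vertical lines part the roles. The core and cap genes sit between 86.7 and 500 CPM, and Psme3, Psme4 and the chaperones below 60.

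The core and the cap were expressed at a high level in both libraries and were higher in cGAMP-treated ECs. Transcripts of the 31 core and cap genes made up 0.610% of all UMIs in the PBS library, at 6101 CPM (exact Poisson 95% interval 6085 to 6117), and 0.799% in the cGAMP library, at 7985 CPM (7963 to 8007), a 1.31-fold difference. The core summed to 3563 and 4800 CPM, a log2 ratio of 0.43 (0.42 to 0.44), and the cap to 2538 and 3185 CPM, a log2 ratio of 0.33 (0.32 to 0.34). Each of the 31 genes was higher in the cGAMP library, whereas 40.4% of all tested genes were. Of the 31, 20 were at least 25% higher, against 12.3% of all tested genes, and 4, Psma6, Psmc2, Psmc5 and Psmd14, at least 50% higher, against 4.53%. Psmc5 lay at this limit, and only Psmc2 stayed past it under each alternative run. The count was 1 at a mitochondrial limit of 5%, without cells with a leucocyte marker UMI, in cells of 20000 to 60000 UMIs and with a library total without mitochondrial UMIs, and 7 with median-of-ratios scaling. The smallest log2 ratio was 0.10, the median 0.41 and the largest 0.68. Among the 1266 genes with 100 to 400 CPM in PBS, the range that most core and cap genes share, 46.6% were higher in cGAMP, and 12.2% were at least 25% higher. The order of the 31 genes by level was nearly the same in both libraries, with a Spearman rank correlation of 0.96 across these genes, which are not independent replicates.

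**Figure D2:**
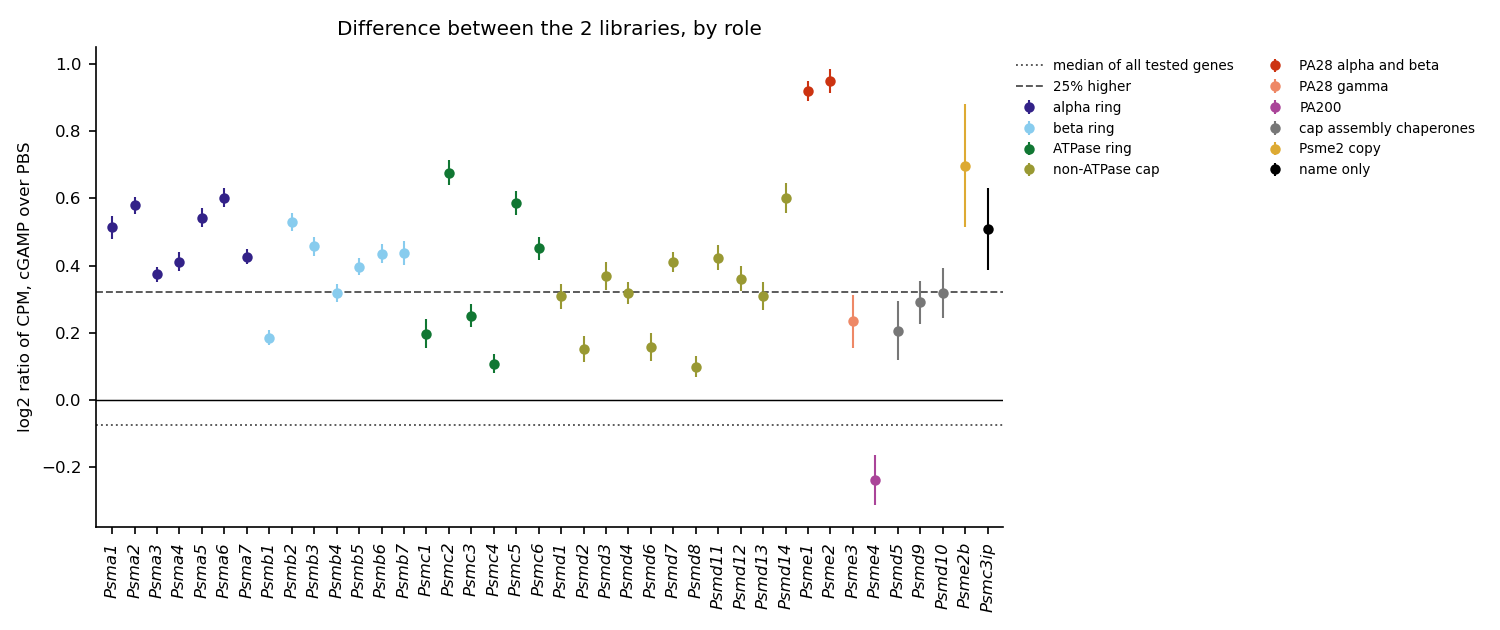
Log2 ratio of CPM, cGAMP over PBS, for the 40 members that reached 5 CPM, coloured by role, with exact intervals of counting error only. The dotted line is the median of all tested genes at -0.08 and the dashed line stands at 25% higher. All core and cap genes lie above 0, Psme1 and Psme2 lie highest at 0.92 and 0.95, and Psme4 lies below 0.

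The alpha ring gates the core. It summed to 1813 CPM in PBS-treated and 2525 CPM in cGAMP-treated ECs, a log2 ratio of 0.48, and all 7 genes were at least 25% higher in the latter. Psma6 had the largest log2 ratio, 0.60, with 200 CPM (197 to 203) in PBS-treated and 303 CPM (299 to 307) in cGAMP-treated ECs. Psma3 had the smallest of the ring, 0.37, with 386 CPM (382 to 390) and 500 CPM (494 to 505). It stood at the top of all members by level, where its interval overlapped that of Psmb1 in the PBS and that of Psma7 in the cGAMP library. The least abundant alpha gene, Psma1, went from 154 to 220 CPM, a log2 ratio of 0.51.

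The beta ring carries the catalytic sites. It summed to 1751 and 2275 CPM, a log2 ratio of 0.38, and 5 of its 7 genes were at least 25% higher in cGAMP-treated ECs. The 3 catalytic subunits lay close together in ratio. Psmb5, the chymotrypsin-like subunit, had 277 CPM (274 to 281) in the PBS and 365 CPM (360 to 370) in the cGAMP library, a log2 ratio of 0.40. Psmb6, the caspase-like subunit, had 228 and 309 CPM, a log2 ratio of 0.44. Psmb7, the trypsin-like subunit and the least abundant gene of the ring, had 141 and 190 CPM, a log2 ratio of 0.44. The order Psmb5, Psmb6, Psmb7 held in both libraries with intervals that did not overlap. Among the subunits without a catalytic site, Psmb2 had the largest log2 ratio, 0.53 (239 and 345 CPM), and Psmb1, the most abundant of the ring, the smallest, 0.19 (384 and 436 CPM). The immunoproteasome genes Psmb8, Psmb9 and Psmb10, the inducible counterparts of Psmb5, Psmb6 and Psmb7, had log2 ratios of 1.35, 1.32 and 0.93, from 244 to 621, 75.4 to 189 and 89.8 to 171 CPM. In cGAMP-treated ECs Psmb8 transcripts were therefore more abundant than those of Psmb5, which they were not in PBS-treated ECs.

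The ATPase ring unfolds the substrate. It summed to 967 and 1237 CPM, a log2 ratio of 0.36, and its members ranged from 0.11 to 0.68 in log2 ratio, against 0.19 to 0.60 in the core, with 3 of 6 at least 25% higher in cGAMP-treated ECs. Psmc2 had the largest log2 ratio of all core and cap genes, 0.68, with 124 CPM (121 to 126) and 197 CPM (194 to 201), and Psmc5 followed with 0.58 (139 and 209 CPM). Psmc4, the most abundant of the ring, had 268 and 289 CPM, a log2 ratio of 0.11, and Psmc1, the least abundant, 105 and 120 CPM, a log2 ratio of 0.20. Psmc4 was also the core or cap gene that varied most between EC states, as given further on.

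The other cap genes form the base and lid that hold ubiquitin chains and take them off. They summed to 1571 and 1948 CPM, a log2 ratio of 0.31, and 5 of 11 were at least 25% higher in cGAMP-treated ECs. Psmd14, the enzyme that removes the ubiquitin chain from the substrate, had the lowest PBS level of the cap and the largest log2 ratio of this group, 0.60, with 86.7 CPM (84.8 to 88.7) and 132 CPM (129 to 134). The ubiquitin receptor Psmd4 had 169 and 210 CPM, a log2 ratio of 0.32. Psmd8, a lid subunit, had the smallest ratio of the 31 genes, 0.10, with 220 and 236 CPM, and was the most abundant of this group in PBS-treated ECs. In cGAMP-treated ECs Psmd7, another lid subunit, was the most abundant at 285 CPM, from 214 CPM in PBS-treated ECs. The values for Psmd1, Psmd2, Psma5, Psmb3, Psmb5, Psmc1 and Psma2 are uncertain where the counting could divide reads, since Psma2 overlaps a gene on the same strand and the others have a near-identical 3′ end in another gene or gene copy.

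Over all ECs, the PA28 alpha and beta genes differed more between the libraries than any core or cap gene. Psme1, which encodes PA28 alpha on chromosome 14 of GRCm38 from 55578123 to 55581529, had 181 CPM (178 to 184) in PBS-treated and 342 CPM (337 to 347) in cGAMP-treated ECs, a log2 ratio of 0.92. Psme2, which encodes PA28 beta on the other strand of the same chromosome from 55587441 to 55591113, had 116 CPM (114 to 119) and 224 CPM (221 to 228), a log2 ratio of 0.95. Both summed to 297 and 566 CPM, a 1.91-fold difference. Psme2b, a copy of Psme2 that overlaps other genes on its strand, had 5.10 and 8.27 CPM, a log2 ratio of 0.70 (0.51 to 0.88), and reads may be divided between it and Psme2. The other activators did not share this difference. Psme3, the PA28 gamma gene on chromosome 11 from 101316213 to 101323537, had 31.4 CPM (30.3 to 32.6) and 37.0 CPM (35.5 to 38.5), a log2 ratio of 0.23, or 0.14 with each cell thinned to 10000 UMIs. Psme4, the gene of the ATP-independent activator PA200 on chromosome 11 from 30771726 to 30880361, was the only one of the 40 members past the minimum that was lower in cGAMP-treated ECs, at 42.5 CPM (41.2 to 43.8) and 36.0 CPM (34.6 to 37.5), a log2 ratio of -0.24 (-0.31 to -0.16). Without the cells that held a UMI of a leucocyte marker, the log2 ratio of Psme4 was -0.11.

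The chaperones of cap assembly, which are not part of the finished proteasome, summed to 107 and 130 CPM, a log2 ratio of 0.28. Psmd9, the most abundant of them, had 46.6 and 57.0 CPM, and Psmd10 had the largest log2 ratio, 0.32. Psmd5 had the lowest level and the smallest ratio, with 25.6 and 29.6 CPM and a log2 ratio of 0.21. None of the 3 was 25% higher. Of the remaining members, Psmc3ip had 12.1 and 17.2 CPM, a log2 ratio of 0.51. It was 0.09 both without the cells that held a UMI of a leucocyte marker and in cells of 20000 to 60000 UMIs. Psma8 was counted with 241 and 280 UMIs in all, at 2.62 and 4.42 CPM, a log2 ratio of 0.76 (0.50 to 1.01), and Psmb11 with 21 and 9 UMIs, with a log2 ratio of -0.68 whose interval ran from -1.99 to 0.50, so that no direction could be read for Psmb11 at this depth. In all, 24 of the 40 members past the minimum were at least 25% higher in cGAMP-treated ECs and 0 at least 20% lower, against 21.8% of all tested genes for the latter.

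Genes that build, inhibit or work with the proteasome were less uniform than its subunits. Of a list of 28 such genes, 25 were listed, with a median log2 ratio of 0.16. In cGAMP-treated ECs 6 were at least 25% higher, against 12.3% of all tested genes. At least 20% lower was 1, against 21.8% of all tested genes. Among the 6 were the core assembly factors Pomp (log2 ratio 0.37), Psmg1 (0.73), Psmg2 (0.33) and Psmg4 (0.40) and the cap ubiquitin receptor Adrm1 (0.43). Ddi2, the protease that activates the proteasome gene regulator Nfe2l1, was the lower gene, with 42.8 and 30.3 CPM and a log2 ratio of -0.50. Nfe2l1 itself had 109 CPM in both libraries, and its relative Nfe2l2 91.7 and 105 CPM. Psmg1 had 40.3 and 66.9 CPM, and Pomp, the most abundant of the 6, 631 and 818 CPM. The ubiquitin gene Ubb had a log2 ratio of 0.35.

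Depth per cell, the mitochondrial share and leucocyte transcripts also differed between the libraries. In groups of cells with similar numbers of UMIs, the log2 ratio of the core and cap was 0.30 in cells under 20000 UMIs, 0.29 from 20000 to 30000, 0.33 from 30000 to 40000, 0.35 from 40000 to 60000 and 0.45 above 60000, and that of PA28 alpha and beta lay between 0.83 and 1.02. In cells with at most 5% mitochondrial UMIs, the core had a log2 ratio of 0.40, the cap 0.28 and PA28 alpha and beta 0.91. Without the cells that held a UMI of any leucocyte marker, which left 1441 PBS-treated and 252 cGAMP-treated ECs, the ratios were 0.39, 0.30 and 0.89. A deeper cell is more likely to hold such a UMI, so this restriction does not tell leucocyte transcripts apart from depth. All 31 core and cap genes were higher in cGAMP-treated ECs under each of these last 2 restrictions.

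The difference was seen across the range of single cells. With each cell thinned to 10000 UMIs, PBS-treated ECs had a median of 60 core and cap UMIs, with 38 at the 10th and 83 at the 90th percentile. For cGAMP-treated ECs the median was 79, with 54 and 102 at these percentiles, and 85.0% of them lay above the PBS median. Cells with fewer UMIs, 182 in the PBS and 56 in the cGAMP library, were not used here. For PA28 alpha and beta the medians were 3 and 5 UMIs. Core and cap UMIs varied together across cells of the same library, with Pearson's r of 0.63 over 2335 PBS-treated and 0.58 over 1284 cGAMP-treated ECs. PA28 alpha and beta varied with the 3 immunoproteasome genes, with r of 0.42 and 0.51. These are descriptions of cells that share a library, and the thinning fixed their depth.

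To describe the members by EC state, the cells of both libraries were clustered without the members and without genes that differed at least 2-fold between the libraries. Of 8 clusters, 7 had at least 50 cells in each library. They were stalk-like ECs (raised Ackr1, Selp and Vwf), arterial ECs (Gja4, Gja5 and Sema3g), tip-like ECs led by Gal and Chga, tip-like ECs led by Ankrd1 and Pgf that also had the hypoxia-type genes Bnip3, Adm and Egln3 among their leading genes, cycling cells in S phase or in G2/M, and an unnamed cluster led by Ramp3 and Esm1. The G2/M cluster had 15 of 15 G2/M markers raised and also 12 of 15 S phase markers, so its name does not set it apart from S phase. The S phase cluster had 12 of 15 S phase and 0 of 15 G2/M markers raised. Stalk-like ECs had 8 of 11 and arterial ECs 12 of 15 markers of their lists raised. Of 13 tip-like markers, 6 were raised in Gal/Chga and 7 in Ankrd1/Pgf tip-like ECs. Gal and Chga are not on that list. In the Ramp3/Esm1 cluster 0 of the 13 were raised at least 2-fold, though Esm1 is among them. The states were cut from the same cells, so differences between them are descriptions.

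**Figure D3:**
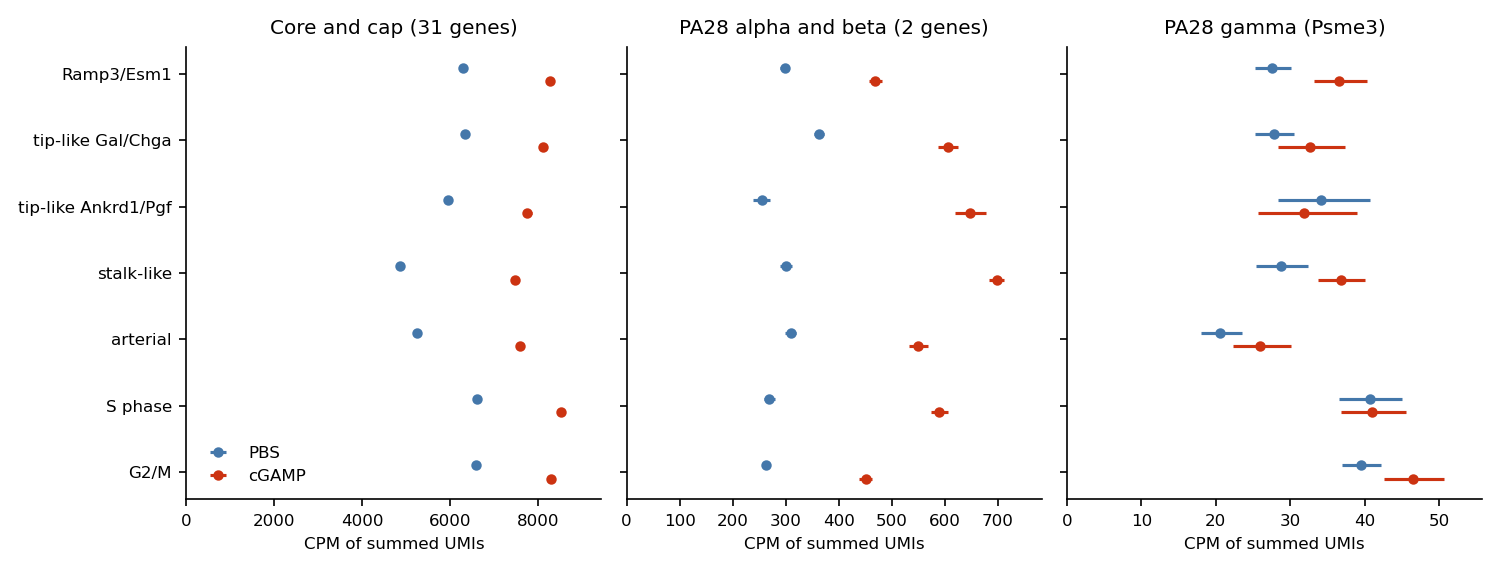
Summed CPM by EC state (rows) in PBS-treated (blue) and cGAMP-treated (red) ECs, for the 31 core and cap genes, for PA28 alpha and beta, and for Psme3, with exact Poisson 95% intervals and axes from 0. The core and cap are lowest in stalk-like and arterial ECs of the PBS library at 4853 and 5243 CPM, and Psme3 is lowest in arterial ECs of both.

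Summed core and cap levels were lowest in stalk-like ECs, at 4853 CPM in the PBS and 7471 CPM in the cGAMP library. Arterial ECs followed with 5243 and 7594 CPM. The cycling states were highest, with 6598 and 8517 CPM in S phase and 6582 and 8302 CPM in G2/M, next to 6285 and 8272 CPM in the Ramp3/Esm1 cluster and 6338 and 8118 CPM in Gal/Chga tip-like ECs. Ankrd1/Pgf tip-like ECs lay between, with 5950 and 7748 CPM. The intervals overlapped between S phase and G2/M and between the Ramp3/Esm1 cluster and Gal/Chga tip-like ECs in the PBS library, and between G2/M and the Ramp3/Esm1 cluster and between Ankrd1/Pgf tip-like and arterial ECs in the cGAMP library. Relative to the other cells of the same library, stalk-like ECs had a log2 ratio of -0.36 in the PBS and -0.12 in the cGAMP library, and arterial ECs -0.25 and -0.08. In Ankrd1/Pgf tip-like ECs the core was lower too, at -0.13 and -0.09, but the cap was at 0.08 and 0.01 (-0.02 to 0.04). In the cGAMP library the core alone was lowest in arterial ECs, at 4504 CPM, where its interval overlapped that of Ankrd1/Pgf tip-like ECs, at 4531 CPM. Of the 31 genes, 28 were lower in stalk-like than in other cells of both libraries, where 42.2% of all tested genes were. In arterial ECs 25 were lower in both, against 36.9%. In G2/M 24 were higher in both, against 41.3%, and in S phase 25, against 37% of all tested genes. Stalk-like and arterial ECs also had fewer UMIs per cell than the other states, with medians of 21292 and 20706 in PBS-treated ECs, against 41049 in G2/M. In cGAMP-treated ECs these medians were 38009 in stalk-like ECs, 28092.5 in arterial ECs and 58405 in G2/M. Over all PBS-treated ECs the core and cap had 5571 CPM in cells under 20000 UMIs, and between 5957 and 6344 CPM in the groups of deeper cells.

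Within every one of these 7 states the core and cap were higher in cGAMP-treated ECs. The log2 ratio was 0.62 in stalk-like and 0.53 in arterial ECs, the states with the lowest level in PBS, and between 0.33 and 0.40 in the others. All 31 genes were higher in 6 of the states, and 30 in Ankrd1/Pgf tip-like ECs. The median log2 ratio of all genes tested within a state lay between -0.11 in stalk-like and 0.03 in Ankrd1/Pgf tip-like ECs. At least 25% higher were 29 of 31 in stalk-like ECs, against 17.2% of all tested genes there, and 28 in arterial ECs, against 18%. The counts were 22 in the Ramp3/Esm1 cluster, against 14.9%, 21 in Ankrd1/Pgf tip-like ECs, against 26%, 20 in Gal/Chga tip-like ECs, against 14.6%, 18 in S phase, against 13%, and 17 in G2/M, against 12.5%. Psma6 had 143 and 295 CPM in stalk-like ECs, a log2 ratio of 1.04, and Psmd14 had 54.1 and 114 CPM in arterial ECs, the largest log2 ratio of a core or cap gene in any of these states. Whether the ratio differed between states was not tested.

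**Figure D4:**
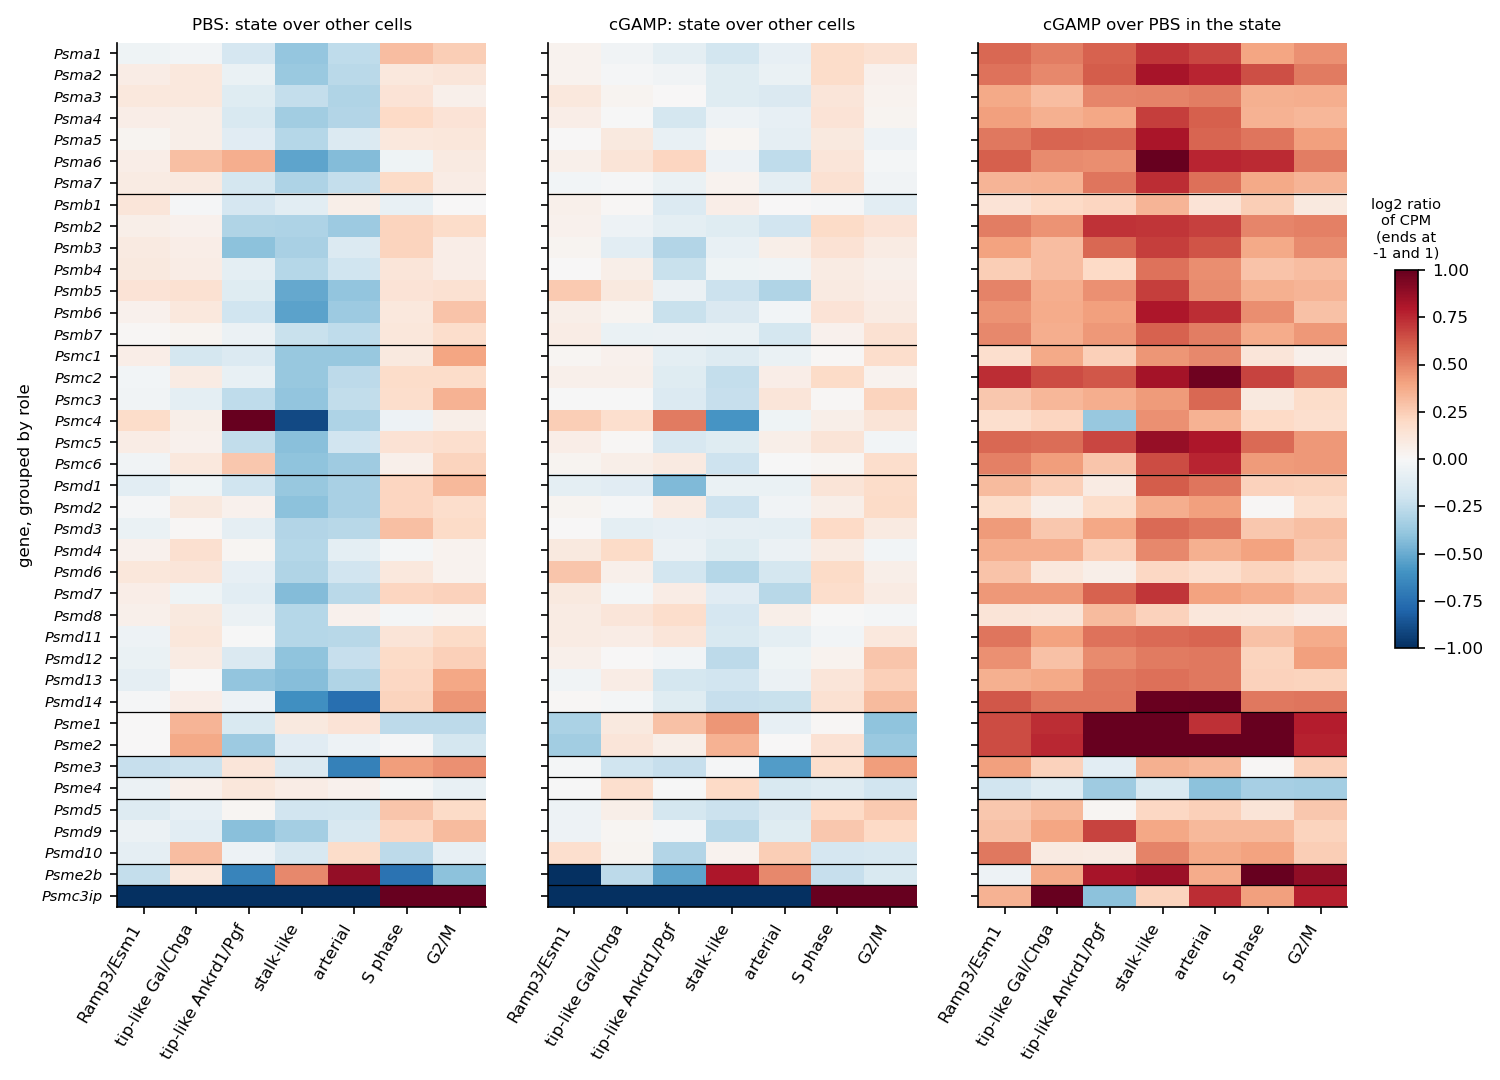
Log2 ratios of CPM for the 40 members (rows, grouped by role) in 7 EC states (columns), as the state over the other cells of the PBS library (left), of the cGAMP library (middle), and as cGAMP over PBS within the state (right), with colours ending at -1 and 1. Stalk-like ECs are blue for nearly all core and cap genes in the PBS library, Psmc4 is red in Ankrd1/Pgf tip-like ECs of both libraries, and the right panel is red but for Psme4 and single fields.

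PA28 alpha and beta did not follow the core and cap over the states. In PBS-treated ECs their summed level was highest in Gal/Chga tip-like ECs, at 362 CPM, and lowest in Ankrd1/Pgf tip-like ECs, at 254 CPM, with stalk-like ECs at 300.4 CPM. The interval of the lowest, 238 to 271 CPM, overlapped those of G2/M and S phase. In cGAMP-treated ECs it was highest in stalk-like ECs, at 698 CPM (685 to 712), and lowest in G2/M, at 451 CPM (439 to 464), where it overlapped the Ramp3/Esm1 cluster at 469 CPM (457 to 482). The log2 ratio of cGAMP over PBS was 1.35 in Ankrd1/Pgf tip-like ECs, 1.22 in stalk-like ECs, 1.13 in S phase, and between 0.65 and 0.83 in the other states. The 35 interferon-induced genes used further on had 2.13, 1.96, 1.88 and 1.23 to 1.54 in the same order. Their sum was highest in Gal/Chga tip-like ECs of both libraries, at 3901 and 9151 CPM. It was lowest in G2/M, at 1744 and 5065 CPM, with S phase at 1753 CPM in the PBS library. Whether PA28 levels follow this list over the states was not tested. Psme3 had its highest levels in cycling cells, at 40.6 CPM in S phase and 39.5 CPM in G2/M of the PBS library and 46.5 CPM in G2/M of the cGAMP library. In S phase of the cGAMP library Psme3 had 41.0 CPM (36.8 to 45.6), an interval that overlapped those of all states but arterial ECs. In the PBS library the interval of Ankrd1/Pgf tip-like ECs, 28.4 to 40.7 CPM, overlapped those of both cycling states. The lowest Psme3 levels were in arterial ECs, at 20.6 and 26.0 CPM, with intervals apart from those of the cycling states. Psme4 varied little over the states, between 40.9 and 45.9 CPM in PBS-treated ECs. It was lower in cGAMP-treated ECs of each, with log2 ratios of -0.41 to -0.13. The intervals of these ratios included 0 in stalk-like, Gal/Chga tip-like and Ankrd1/Pgf tip-like ECs.

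Over the states the largest ranges among the members were those of Psmc3ip, Psma8 and Psme2b, all with low counts. Psmc3ip had 30.1 CPM in S phase and 26.3 CPM in G2/M of the PBS library, and 3.01 CPM in Gal/Chga tip-like ECs. Psme2b ranged 2.69-fold and 2.87-fold over the states of the PBS and the cGAMP library. Psmc4 came next and first among core and cap genes. It had 528 CPM (504 to 552) in Ankrd1/Pgf tip-like ECs and 151 CPM (143 to 159) in stalk-like ECs of the PBS library, and 406 CPM (383 to 430) and 207 CPM (200 to 215) in the cGAMP library. It was the only core or cap gene that was lower in cGAMP-treated ECs of a state. Of the other ATPase genes in Ankrd1/Pgf tip-like ECs, Psmc3 and Psmc5 were lower than in the other cells of both libraries, and the log2 ratios of Psmc1 and Psmc2 lay below 0 with intervals that included 0. Psmc6 was higher, with a log2 ratio over the other cells of 0.27 (0.16 to 0.38) in the PBS and 0.09 (-0.02 to 0.20) in the cGAMP library.

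Along the response to interferon, PA28 alpha and beta rose in both libraries, and the core and cap together changed less. The ECs of each library were divided into 4 bins of nearly equal size by the share of their UMIs from a list of 35 interferon-induced genes, such as Isg15 and Irf7, which holds no proteasome or PA28 gene. The bins are ranges of this share and no cell types, and their makeup of EC states was not compared. The list summed to 2421 CPM in PBS-treated and 7086 CPM in cGAMP-treated ECs. From the lowest to the highest bin of the PBS library, the core and cap went from 6501 CPM (6469 to 6534) over 6132 and 5809 to 5947 CPM (5915 to 5979), a log2 ratio of -0.13. In the cGAMP library they went from 7854 CPM (7811 to 7898) over 7920 and 8014 to 8143 CPM (8100 to 8187), a log2 ratio of 0.05. Only 2 of the 31 genes were higher in the highest bin in PBS, against 46.5% of all tested genes, and 21 in cGAMP, against 41.9%.

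**Figure D5:**
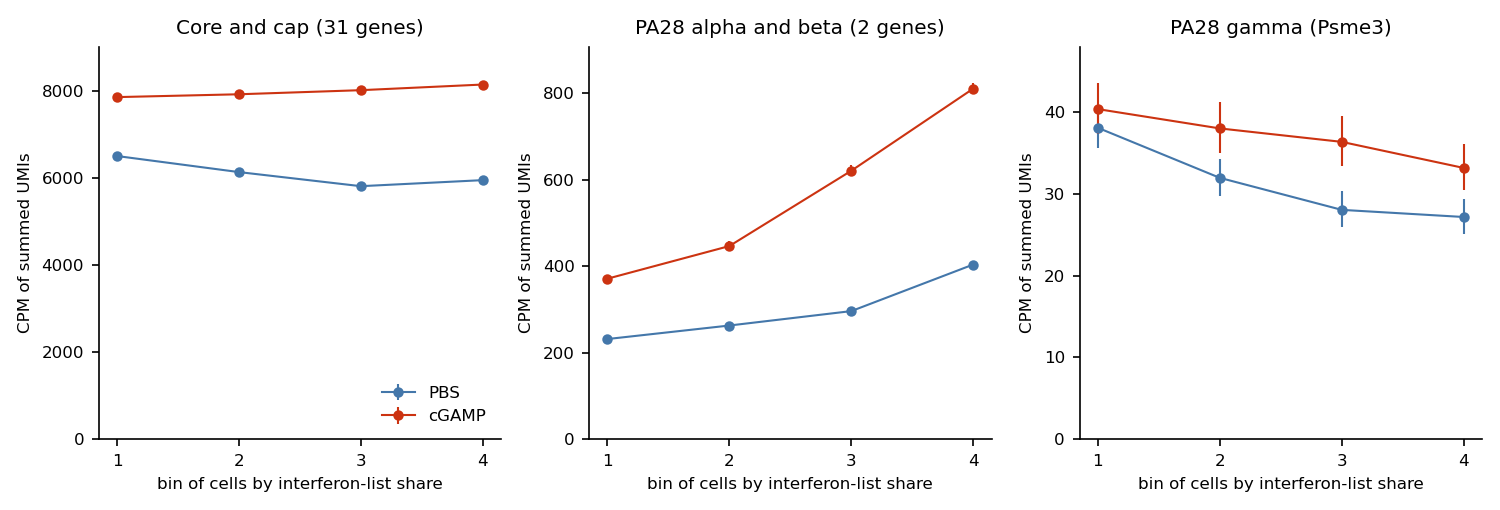
Summed CPM of the 31 core and cap genes, of PA28 alpha and beta and of Psme3 in 4 bins of the ECs by their share of UMIs from 35 interferon-induced genes (1 lowest, 4 highest), in PBS-treated (blue) and cGAMP-treated (red) ECs, with exact Poisson 95% intervals. PA28 alpha and beta climb to 404 and 811 CPM, and Psme3 is lower in bin 4 than in bin 1 at 27.2 and 33.2 CPM. The core and cap go from 6501 to 5947 CPM in the PBS and from 7854 to 8143 CPM in the cGAMP library.

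PA28 alpha and beta went from 231 CPM (225 to 238) in the lowest over 263 and 296 to 404 CPM (395 to 412) in the highest bin of the PBS library, a log2 ratio of 0.80. In the cGAMP library they went from 371 CPM (362 to 380) over 446 and 621 to 811 CPM (797 to 824), a log2 ratio of 1.13. Psme1 had the steeper course, from 136 to 249 CPM in the PBS and from 210 to 502 CPM in the cGAMP library, against 95.1 to 155 and 160 to 308 CPM for Psme2. The immunoproteasome genes together had log2 ratios of 1.42 and 1.37. After thinning to 10000 UMIs per cell, Psme1 and Psme2 had log2 ratios of 0.82 and 0.70 in the PBS and of 1.03 and 0.92 in the cGAMP library. The intervals of the 2 genes then overlapped in each library. Psme3 went the other way, from 38.1 to 27.2 CPM in the PBS and from 40.4 to 33.2 CPM in the cGAMP library, log2 ratios of -0.49 and -0.28. With each cell thinned to 10000 UMIs these were -0.27 (-0.57 to 0.03) and -0.44 (-0.86 to -0.02). Psme4 had log2 ratios of 0.01 (-0.12 to 0.14) and 0.17 (0.01 to 0.34).

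The lowest bin of cGAMP-treated ECs had less of the interferon list than the highest bin of PBS-treated ECs, 2881 against 5965 CPM, a log2 ratio of -1.05. In the same comparison PA28 alpha and beta together had a log2 ratio of -0.12, whereas the core and cap were higher in cGAMP, with 0.40 (0.39 to 0.41). Only Psme1 was lower, with -0.24 (-0.30 to -0.18), and the interval of Psme2, at 0.05 (-0.03 to 0.12), included 0. All 31 core and cap genes were higher, against 46.7% of all tested genes, and 24 at least 25% higher, against 20.7%. Psme3 was higher with 0.57 (0.41 to 0.73) and Psme4 lower with -0.23. After thinning to 10000 UMIs per cell, the core and cap had 0.41 (0.39 to 0.44), whereas the intervals of PA28 alpha and beta, at -0.07 (-0.17 to 0.03), of Psme3, at 0.33 (-0.03 to 0.68), and of Psme4, at -0.29 (-0.63 to 0.05), included 0.

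The 250 bases before the RefSeq start sites (GRCm38.p6) were found for 35 of the 42 members and searched on both strands for the core of the interferon-stimulated response element (ISRE), which is GAAA, any pair of bases and GAAA again, the interferon-gamma activated site TTCNNNGAA, which reads the same on either strand, the antioxidant response element core TGACNNNGC that Nfe2l1 and Nfe2l2 bind, and CCAAT. Of 25 core and cap genes with a window, 2 (Psmb3 and Psmd4) held the first, against 3.46% of all genes with a window, 0 the second, against 8.13%, 4 (Psmb5, Psmb6, Psmc6 and Psmd12) the third, against 11.5%, and 10 held CCAAT, against 37.5%. In the alpha ring 5 of 7 held CCAAT. None of the 4 motifs was in the windows of Psme1 and Psme2, which says only that these letters are not there. The windows of 5 members, Psme1, Psmb11, Psmd5, Psmd9 and Psmd13, lie wholly inside the gene as GENCODE places it, so the bases upstream of their GENCODE start were not searched, those of Psme1 included. Shown as examples are the windows, 5′ to 3′, of a gene from each of PA28, the core's catalytic subunits and the cap. They are given without the bases of annotated exons and with any of the 4 motifs in capitals. They lie at chr14:55591114-55591351 on the minus strand for Psme2, chr11:70525107-70525356 on the plus strand for Psmb6, and chr2:61711444-61711693 on the plus strand for Psmd14.
Psme2: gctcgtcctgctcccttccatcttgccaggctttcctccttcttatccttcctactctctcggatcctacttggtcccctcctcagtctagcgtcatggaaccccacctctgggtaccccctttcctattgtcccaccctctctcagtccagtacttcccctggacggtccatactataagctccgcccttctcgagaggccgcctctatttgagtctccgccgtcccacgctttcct
Psmb6: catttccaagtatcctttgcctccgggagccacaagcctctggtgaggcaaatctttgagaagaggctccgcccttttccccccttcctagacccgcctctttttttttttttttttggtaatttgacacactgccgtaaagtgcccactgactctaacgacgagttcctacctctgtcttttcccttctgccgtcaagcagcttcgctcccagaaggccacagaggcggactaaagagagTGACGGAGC
Psmd14: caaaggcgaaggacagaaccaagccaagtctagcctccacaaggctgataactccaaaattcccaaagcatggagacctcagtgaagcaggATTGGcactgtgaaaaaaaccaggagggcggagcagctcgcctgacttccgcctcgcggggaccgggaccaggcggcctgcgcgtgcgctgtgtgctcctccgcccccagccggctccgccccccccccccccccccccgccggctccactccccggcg
In Psmb6 the capitals mark an antioxidant response element core that ends at the start site, and in Psmd14 CCAAT on the opposite strand. A match is a description of the letters and no sign that a factor binds there.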

How the data were processed

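The authors aligned reads of droplet-based libraries to mm10 with Cell Ranger 3.0.0, removed cells with fewer than 500 genes or over 10% mitochondrial UMIs, genes in fewer than 3 cells and clusters without Pecam1, and deposited natural log values from Seurat 3.1.1, in which a cell's UMIs are scaled to a sum of 10000 and 1 is added before the logarithm is taken. The labels name version 2 of the kit and the methods version 3. After the logarithm was undone, each cell's values were divided by the lowest of them, which restored whole UMIs for 100% of entries, with a tolerance of 0.01.

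UMIs were summed over cells, with exact Poisson intervals for levels and exact conditional intervals for ratios at 95%. With 1 library per condition no test was made. A gene counted as tested with at least 5 CPM in either library. Counts of members at least 25% or 50% higher, or 20% lower, in cGAMP-treated ECs were read against the share of all tested genes that were. Sums and counts were checked on simulated counts.

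Clustering used Seurat 5.3.0 on R 4.3.3 (2500 variable genes requested and 1792 used, integration, 30 principal components, Louvain resolution 0.5). A state was named where at least 3 markers of its list were at least 2-fold raised, with 5 CPM added, and the remaining conditions for names were set after the clusters were seen. Doublets were kept, since the study names no step against them. The members and lists were chosen with earlier results of these data known. Named are the catalytic, PA28 and PA200 genes, the members with the highest and lowest ratio and level of each role, those at least 50% higher, the 3 with the largest range over states, the immunoproteasome genes and the partner genes past the smaller limits. Psmc4 by state, Psmd4, Psmd7, Nfe2l1, Nfe2l2 and Ubb were added after their values were seen. A partner gene that the rule names is not reported here. Gene coordinates are from GENCODE vM21 and windows before start sites from RefSeq. The planned identity of the proteins was not analysed here. Alternatives were CPM averaged over cells, median-of-ratios scaling, equal state proportions, a mitochondrial limit of 5%, thinning to 10000 UMIs, leaving out cells with a leucocyte marker UMI, other CPM minimums, other clusterings and, added after seeing the data, cells of 20000 to 60000 UMIs and a library total without mitochondrial UMIs. Python 3.11.15 with numpy 2.4.6, scipy 1.17.1 and matplotlib 3.10.9 was used.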

Additional observations from a re-analysis of the deposited data

Results flagged for a closer look

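Psmc4, an ATPase of the regulatory cap, had a log2 ratio of cGAMP over PBS of 0.46 (0.37 to 0.55) in stalk-like ECs and of -0.38 (-0.48 to -0.27) in Ankrd1/Pgf tip-like ECs, so that it went opposite ways in the 2 states. The Ankrd1/Pgf state held 104 PBS-treated and 63 cGAMP-treated ECs. With 1 library per condition this difference between states was not tested. Over all ECs the log2 ratio of Psmc4 was 0.11 and lay between 0.04 and 0.18 under the alternatives.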

How the results depend on the processing

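No paired analysis was possible because each condition had 1 library and the labels carry no replicate numbers. Of the results in the alternatives run, only the highest over the lowest interferon bin of the PBS library for Psme4 changed sign, from 0.01 to -0.051 after thinning, with both intervals across 0. The number of members at least 20% lower was 0 except with no CPM minimum, where it was 1, Psmb11. The number of members at least 25% higher lay between 20 and 30. The log2 ratios of the core, the cap and PA28 alpha and beta, in this order, were 0.41, 0.32 and 0.90 for the mean of per-cell CPM, 0.50, 0.40 and 1.0 for median-of-ratios scaling, which moved the median of all genes by 0.07, 0.40, 0.28 and 0.91 at a mitochondrial limit of 5%, 0.39, 0.30 and 0.89 without cells with a leucocyte marker UMI, 0.38, 0.27 and 0.88 in cells of 20000 to 60000 UMIs, and 0.41, 0.30 and 0.91 with a library total without mitochondrial UMIs. Thinning gave 0.42 for the core and 0.90 for PA28 alpha and beta, and equal state proportions 0.45 for the core and 0.36 for the cap. The level of the core and cap over other cells, as the mean of the libraries, was -0.24 in stalk-like ECs, with -0.26 at a resolution of 0.3 and -0.15 with all variable genes. In arterial ECs it was -0.16, with -0.11 and -0.15 at resolutions of 0.3 and 0.8, -0.17 with all variable genes and -0.14 after thinning. In G2/M it was 0.11, with 0.14, 0.13, 0.14 and 0.14 in the same order. After thinning, the highest over the lowest interferon bin of the cGAMP library was 0.038 for the core and cap and 0.99 for PA28 alpha and beta, and the lowest cGAMP over the highest PBS bin was 0.41 and -0.073. Log2 ratios of named genes that moved by over 1.5 times, beside those given with their gene, were 0.17 for Psmd4 and 0.04 for Psmd5 without cells with a leucocyte marker UMI, 0.12 for Psmc1 in cells of 20000 to 60000 UMIs, 0.21 for Psmd10 after thinning, and 0.06 to 0.17 for Psmd8. Psmb5 was at 0.32, just under 25% higher, without cells with a leucocyte marker UMI. The causes of these shifts were not tested. Each condition had 1 library, and few UMIs were counted for Psmb11 and Psma8.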
